A study of Homo sapiens with 9 samples.

Results

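The core peaks are the sites of RNA polymerase II (RNAPII) occupancy that recurred in all 5 peak lists of a chromatin immunoprecipitation and sequencing (ChIP-seq) study of RECQL5, a DNA helicase that binds RNAPII. They were chosen by measured position, which also leans on length since longer peaks overlap more readily, as the peaks of the control shRNA list that were touched over at least 1 bp by a peak in each of the other 4 lists. Of 5287 control peaks, 4079 met this rule, and the 5 deposited lists together held 142069 peaks. The cells were HEK293, a human embryonic kidney line, and RNAPII was precipitated with the 4H8 antibody. In the first arm the cells had received a lentivirus with the empty pLKO.1 vector (control shRNA) or with a hairpin against RECQL5, either shRNA5 or shRNA7. In the second arm the cells were HEK293 T-REx cells carrying a pcDNA4/TO plasmid with full-length RECQL5, grown with 0.0 or 1.0 ng/ml doxycycline, the drug that switches the plasmid on, so that both groups of this arm held the plasmid beside the cells' own gene. Each RNAPII group was a single library, and 4 IgG libraries served as background for the peak calls. Per the labels, 1 belonged to each virus and 1, without treatment, to both doxycycline lists. There were no replicates, so differences between lists are differences between single libraries, without a test.

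RNAPII transcribes all protein-coding genes and many non-coding ones. At many human genes the polymerase accumulates shortly after initiation, within the first stretch of the gene, and is released into productive elongation later. The 4H8 antibody binds the repeated carboxy-terminal tail of the largest subunit, which is present on initiating and on elongating polymerase, so a peak at a start site holds engaged or waiting polymerase and a broad peak over a gene holds elongating polymerase as well. RNAPII also makes most of the small nuclear RNAs (snRNAs) of the spliceosome and the U3 RNA that processes ribosomal RNA, from short genes with promoters of their own kind.

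Sequence is shown first for the 5 core peaks that had the most control tags per kb among those at the start site of a coding gene, to show the promoters beneath the densest of these peaks. Each line gives the GRCh37 sequence from 100 bases upstream to 20 bases downstream of the annotated start site nearest the control summit, on the strand of the gene. Capitals mark matches to the TATAAA word of a TATA box on the strand of the gene, and on either strand to the GGGCGG word of a GC box, to the CCAAT box and to the CCGGAAG word of an ETS site. The windows were chr1:28974784-28974903 for TAF12, chr5:137801068-137801187 for EGR1, chr11:62609262-62609381 for WDR74, chr22:43010949-43011068 for POLDIP3 and chr6:26158250-26158369 for H2BC5.
TAF12: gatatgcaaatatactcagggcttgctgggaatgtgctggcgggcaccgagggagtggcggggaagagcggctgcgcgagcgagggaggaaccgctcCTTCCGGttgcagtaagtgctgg
EGR1: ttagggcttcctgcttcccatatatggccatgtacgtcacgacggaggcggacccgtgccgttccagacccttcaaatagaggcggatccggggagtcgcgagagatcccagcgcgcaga
WDR74: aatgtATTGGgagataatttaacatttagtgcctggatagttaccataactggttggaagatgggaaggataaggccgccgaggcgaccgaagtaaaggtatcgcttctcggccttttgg
POLDIP3: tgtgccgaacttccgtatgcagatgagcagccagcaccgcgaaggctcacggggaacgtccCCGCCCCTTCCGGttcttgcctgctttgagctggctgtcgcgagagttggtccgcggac
H2BC5: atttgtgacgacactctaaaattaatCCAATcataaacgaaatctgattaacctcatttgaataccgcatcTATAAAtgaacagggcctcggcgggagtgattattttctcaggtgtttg
The 5 windows differed in composition, from 35.8% A and T at POLDIP3 to 62.5% at H2BC5, a replication-dependent histone gene with both a CCAAT and a TATA box. EGR1, an immediate early transcription factor, held none of these words in this window. The control peak at WDR74 also covered RNU2-2P, an annotated copy of the U2 snRNA gene. Its tags may come from either gene, and the start and upstream bases shown may be those of either gene. The peaks at TAF12 and POLDIP3 each covered a non-coding gene that the annotation gives by identifier only, ENSG00000270103 and ENSG00000270022. In RefSeq (GRCh38.p14) the U11 snRNA gene RNU11 lies beside TAF12 and the U12 gene RNU12 beside POLDIP3, so the tags of these peaks may come from snRNA genes as well. Neither peak is counted in the snRNA set described next, which went by annotated gene names.

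The densest core peaks of all lay at U3 and snRNA genes, the first 3 of them at U3 genes. This set was defined after the values had been seen, and it holds the core peaks that touched an annotated gene for a U1, U2, U4, U5, U7 or U4atac snRNA, for U3, or for U8 (SNORD118) or U13 (SNORD13). There were 54 such core peaks, 1.32% of the core, but they made up 23 of the 30 core peaks with the most control tags per kb and 39 of the first 100. Only 2 of the 1208 control peaks outside the core touched a gene of this set. For 6 of these genes the GRCh37 sequence is given from 70 bases upstream of the start site to the first 20 transcribed bases, with the transcribed bases in capitals, because it shows how alike the transcribed copies are. The windows were chr17:19091259-19091348 for SNORD3A, chr1:16840761-16840850 for RNU1-1, chr12:120729687-120729776 for RNU4-2, chr15:65588319-65588408 for RNU5A-1, chr15:65596945-65597034 for RNU5B-1 and chr1:45196823-45196912 for RNU5D-1.
SNORD3A: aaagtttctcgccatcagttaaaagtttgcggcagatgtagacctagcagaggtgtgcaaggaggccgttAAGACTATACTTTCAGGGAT
RNU1-1: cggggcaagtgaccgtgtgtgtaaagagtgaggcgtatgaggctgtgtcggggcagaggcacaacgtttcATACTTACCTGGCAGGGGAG
RNU4-2: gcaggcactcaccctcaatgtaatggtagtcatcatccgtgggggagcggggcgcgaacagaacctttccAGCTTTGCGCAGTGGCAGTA
RNU5A-1: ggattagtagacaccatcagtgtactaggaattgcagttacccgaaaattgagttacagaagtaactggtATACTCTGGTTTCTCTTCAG
RNU5B-1: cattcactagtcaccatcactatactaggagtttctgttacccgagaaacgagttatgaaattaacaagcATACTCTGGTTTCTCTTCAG
RNU5D-1: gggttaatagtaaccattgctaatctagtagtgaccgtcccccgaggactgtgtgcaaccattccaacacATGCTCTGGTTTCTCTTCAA
RNU5A-1 and RNU5B-1 were the same at 20 of 20 transcribed bases and at 49 of 70 upstream bases. RNU5A-1 and RNU5D-1 were the same at 18 and 36 bases. Only these windows were compared. Reads of 36 bases may not be assignable to 1 copy where copies are alike, so the tags of a single U1, U2, U3 or U5 copy are uncertain.

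At SNORD3B-1, one of the U3 genes, the peaks held 426 tags per kb in the control list, 531 and 737 upon shRNA5 and shRNA7, and 656 and 468 at 0.0 and 1.0 ng/ml doxycycline. At SNORD3A the values were 412, 540, 736, 650 and 475 tags per kb. These 2 U3 loci were densest upon shRNA7 in the first arm and denser without than with doxycycline in the second. The U3 copy in an intron of TEX14 was densest upon shRNA5, at 543 tags per kb against 492 upon shRNA7 and 348 in the control list. A U3 copy on chromosome 15 was denser with doxycycline, at 103 against 87.3 tags per kb. The control peak over RNU5A-1, which encodes the U5 snRNA of the spliceosome core, held 316 tags per kb, against 325 and 220 with the hairpins, 333 at 0.0 and 250 at 1.0 ng/ml doxycycline. The shRNA7 peak at RNU5A-1 was 3.93 times as long as the control peak, so its lower density stood beside a larger span.

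Over the 54 snRNA and U3-type peaks the median density was 185 tags per kb for the control (95% interval 132 to 215), 253 and 269 for the hairpins, and 215 and 185 at 0.0 and 1.0 ng/ml doxycycline. The other 4025 core peaks had a median of 49.1 tags per kb in the control list. The doxycycline ratio of tags per kb was 0.842 at the snRNA and U3-type peaks (0.777 to 0.907), with 44 of 54 below 1. At the other core peaks it was 1.19, with 881 of 4025 below 1. The hairpin ratios of tags per kb were 1.44 and 1.71 at the snRNA and U3-type peaks, for shRNA5 and shRNA7, and 1.38 and 1.66 at the others. Their length ratios were 1.23 and 1.56, against 1.68 and 3.01 at the other core peaks. Because the peaks were grouped after their values had been seen, and copies share reads, these differences are given as a description.

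**Figure D1:**
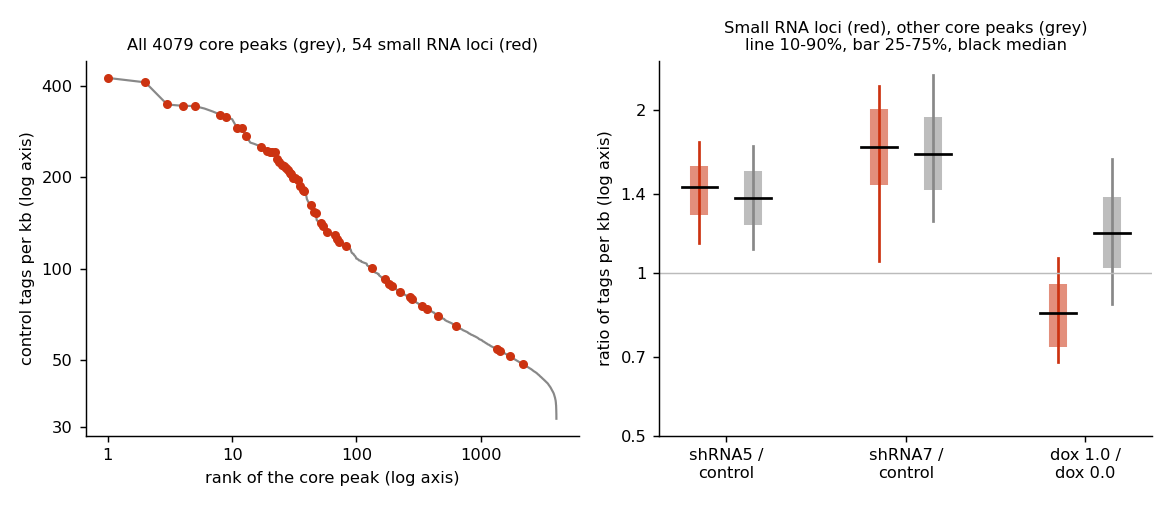
Left, tags per kb of each of the 4079 core peaks in the control list against its rank, both on log axes, with the 54 peaks at snRNA and U3-type genes in red. Right, ratios of tags per kb (log axis) in these peaks (red) and in the other core peaks (grey) for shRNA5 and shRNA7 over control and for doxycycline over none, with the 10th to 90th percentile as a line, the 25th to 75th percentile as a bar and the median in black. The red peaks fill most of the first 30 ranks, and their doxycycline median is 0.842 against 1.19.

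The core stood mainly at promoters. A peak was called promoter-proximal when it came within 500 bp of an annotated start (TSS) of any protein-coding transcript, and 2677 core peaks did so, or 65.6% (95% Wilson interval 64.2 to 67.1). Of the control peaks outside the core, 24.9% did so (22.6 to 27.4). A further 1080 core peaks, 26.5%, lay over the body of a coding gene, against 60.8% of the peaks outside the core. The TSS of a non-coding gene was reached by 181 of the remaining core peaks, and 141 had none of these positions. By the same measure 8563 of 23698 shRNA5 peaks, 10278 of 32124 shRNA7 peaks, 12394 of 47060 no-doxycycline peaks and 9946 of 33900 doxycycline peaks were promoter-proximal.

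The control summit lay in a coding exon in 383 core peaks, in an untranslated (UTR) exon in 1383, in an intron in 1193, in a non-coding gene in 417 and outside all genes in 703. Outside the core an intron held the summit in 50.5% of peaks, against 29.2% in the core. Within 500 bp of the summit on each side, the median AT content was 44.6% in the core and 54.6% outside it. Promoter-proximal core peaks had a median of 41.8% and gene-body core peaks one of 55.2%, so the 2 positions differed more than core and other peaks of 1 position did. Outside the core the medians were 42.9% for promoter-proximal and 57.9% for gene-body peaks. The CpG ratio, the number of CpG dinucleotides over the number expected from the C and G content, was 0.772 at promoter-proximal core peaks and 0.682 at promoter-proximal peaks outside the core, against 0.227 at gene-body core peaks.

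A core peak marked the start site of 3124 of the 19833 annotated coding genes with a coding transcript, a background of 15.8%. Of the 3420 coding genes with any control peak at the TSS, 91.3% had a core peak there (90.4 to 92.2). Most promoter-proximal core peaks, 2131 of 2677, touched the start sites of 1 coding gene, 498 touched those of 2 genes and 48 those of 3 or more. At 476 of them the genes lay on both strands. Start sites of 1074 long non-coding RNA genes, 136 small nucleolar RNA genes and 86 microRNA genes were also touched, many of them within or beside a coding gene.

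Promoter sequence was matched by symbol to the RefSeq promoter set on GRCh38.p14, which runs from 250 bases before to 50 after the start, for 2654 of the 3124 genes with a core peak at the TSS and for 15281 of all coding genes. The ETS core CCGGAAG was present on either strand in 26.9% of the core promoters and in 14.4% of all coding promoters. The YY1 word AAGATGGCG was found in 6.71% and 2.80%, the CCAAT box in 43.2% and 36.6%, and the GC box in 66.2% and 59.2%. The CRE word TGACGTCA stood in 4.26% and 2.64%, and the NRF1 core CGCATGCG in 4.41% and 2.87%. A TATAAA word within 45 to 16 bases upstream, on the strand of the gene, was present in 3.62% of core and 3.72% of all coding promoters. A match describes these letters only and says nothing of binding.

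By gene group, the cytosolic ribosomal proteins stood out by count, with a core peak at the TSS of 83 of 90 genes. All 83 of their genes that had a control peak were in the core, which was not particular to them. It held for 7 of the 22 gene lists, and 91.3% of all coding genes with a control peak at the TSS had a core peak there. Among 22 gene lists, 19 had a share of core genes above the 15.8% of all coding genes, and the lists were chosen with earlier results of these data known. The share was 48 of 66 for replication-dependent histones, 15 of 22 for heat shock proteins, 14 of 22 for immediate early genes, 13 of 19 for snoRNA host genes and 15 of 24 for hnRNP proteins, which package nascent RNA. It was 8 of 14 for SR splicing factors, 33 of 69 for translation factors (a list by symbol that also takes in EIF2AK3, a kinase, and 2 methyltransferases), 36 of 77 for subunits of the respiratory chain and ATP synthase and 8 of 17 for glycolysis enzymes. Lower shares were found for proteasome subunits, 12 of 39, for elongation and pause control factors, 9 of 27, and for cholesterol synthesis enzymes, 4 of 19. Actins and tubulins had 8 of 15, 14-3-3 proteins 3 of 7, RNAPII subunits 4 of 12, and MCM helicase subunits 3 of 6.

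Genes of unrelated cell types had no core peak. None of 399 olfactory receptor genes and none of 9 markers of liver, blood, islet, muscle and connective tissue cells (ALB, APOA1, HBB, HBA1, PTPRC, CD3E, INS, MYH7 and COL1A1) had one. Of 6 markers tied to HEK293 cells, VIM, KRT8 and KRT18 had one, and PAX2, LHX1 and NES did not. Histone, ribosomal protein and tubulin genes have near-identical copies or pseudogenes, so the tags of a single member are uncertain.

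**Figure D2:**
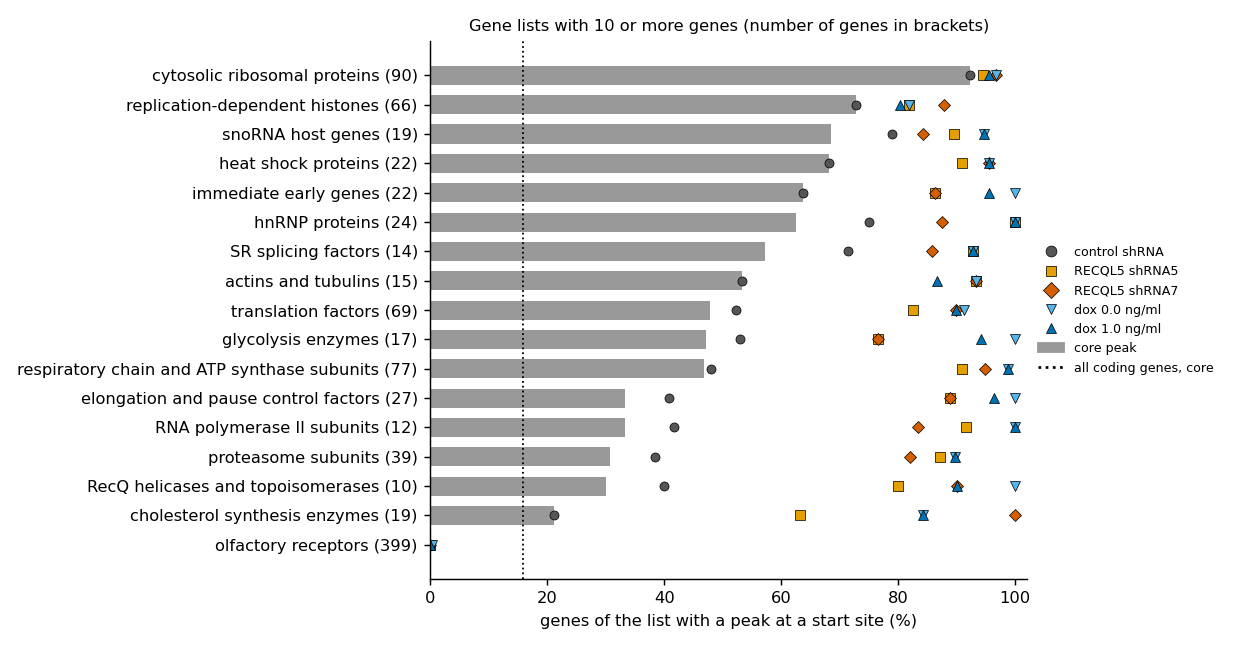
Share of genes (%, horizontal axis) with a peak within 500 bp of a start site, for gene lists of 10 or more genes. Grey bars give core peaks, symbols give each of the 5 lists and the dotted line marks the 15.8% of all coding genes. The bars run from 0 for olfactory receptors to 92.2% for cytosolic ribosomal proteins, and end at or just left of the control symbols, whereas the other lists lie further right.

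Each other list touched most control peaks. Peaks of the shRNA5, shRNA7, no-doxycycline and doxycycline lists touched 97.4%, 88.4%, 93.6% and 89.9% of the control peaks. Of the 1208 control peaks outside the core, 856 were missing from 1 list only, and for 478 of these it was shRNA7, for 254 doxycycline, for 93 no doxycycline and for 31 shRNA5. The 478 peaks missing from shRNA7 alone were neither short nor poor in tags. Their median was 2768 bp and 147 tags in the control list, against 1861 bp and 93 tags in the core, and 52.1% of them lay over gene bodies. Their median density was 50.1 tags per kb, against 49.3 in the core. Their median fold enrichment, of tags over those anticipated locally, was lower than in the core, 11.5 against 13.6. The 254 peaks missing only with doxycycline had a median of 1906 bp and 78 tags, and 68.1% lay over gene bodies. Only 9 control peaks were touched by none of the other lists.

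Near the edge of the rule, the smallest overlap inside the core was 11 bp, between a control peak at GNB1L and a doxycycline peak, and the next were 21 bp at ECHDC2 and 22 bp at XPO1. Just outside, a doxycycline peak lay 3 bp from the control peak at MAVS and another 8 bp from the one at UBE2C. Overlap was seldom marginal, since 17 of 4079 core peaks had a smallest overlap of 100 bp or less and 81.9% had at least 50% of the control peak covered in every list. Among the 856 peaks missing from 1 list, 159 had a peak of that list within 1 kb, and the median gap was 7687 bp.

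Chromosomes differed in how much of the control list recurred. The share was lowest on chromosome X, 60.5% of 157 peaks (52.7 to 67.8), chromosome 19, 60.8% of 508, and chromosome 17, 61.2% of 546 (57.0 to 65.2). It was 83.4% of 643 peaks on chromosome 1 and covered 69 of 75 peaks on chromosome 4. HEK293 cells carry unequal copy numbers of chromosome segments, and copy number was not measured here.

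In the 4 lists other than the control, the peaks at core sites held a larger share of tags than of peaks or of peak length. In the control list the core took 77.2% of the control peaks and 79.0% of their tags, which is nearly even. Of the others, 3657 shRNA5, 3337 shRNA7, 5486 no-doxycycline and 5252 doxycycline peaks touched the core. These were 15.4%, 10.4%, 11.7% and 15.5% of the peaks of their lists, but held 38.6%, 38.5%, 39.5% and 41.2% of the tags. They also took 27.8%, 24.9%, 24.4% and 29.3% of the peak length. The overlap rule favours long peaks, and long peaks hold more tags, so part of this excess is built in. Of the 1000 peaks with the highest significance score (a multiple of −log10 p), 816, 739, 831 and 769 in these 4 lists touched a core peak. The nearest shRNA5 summit was a median of 112 bp from the control summit, the nearest shRNA7 summit 132 bp, and the nearest summit 120 bp in both doxycycline lists.

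The peaks at core sites were longer in the hairpin lists. The median length at a core peak, summed over all overlapping peaks of a list, was 1861 bp in the control list, 3668 bp upon shRNA5 and 7721 bp upon shRNA7. The median number of tags was 93, 263 and 615, and the median density 49.3, 69.1 and 83.4 tags per kb. In the doxycycline arm the medians were 1808 bp and 87 tags without the drug and 1652 bp and 92 tags with it, at 46.0 and 52.4 tags per kb. Tags were not scaled to sequencing depth. The study's methods state that compared libraries had similar numbers of reads, with a higher range for the hairpin arm than for the doxycycline arm. Tags and lengths of the arms are therefore not on a common scale. The lists hold no library totals, so smaller ratios of tags per kb cannot be told apart from differences in depth. The length of a called peak also depends on depth and on the IgG library.

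**Figure D3:**
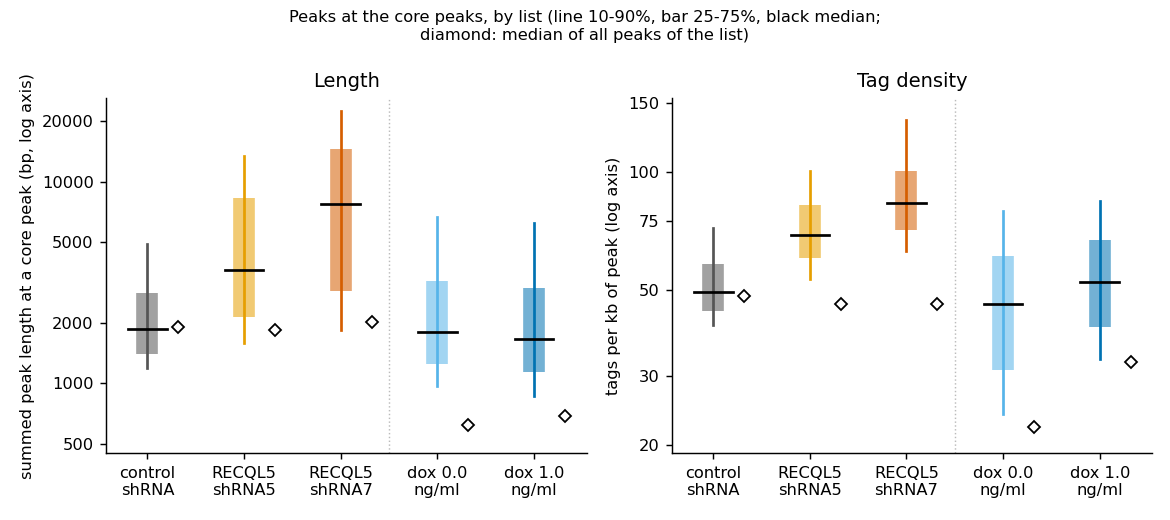
Length (bp) and tags per kb of the peaks of each list at the 4079 core peaks, on log axes, with the 10th to 90th percentile as a line, the 25th to 75th percentile as a bar and the median in black. Diamonds give the median of all peaks of the list, each taken singly. The core values sum all overlapping peaks and count a shared peak at each core peak. The overlap rule also favours long peaks, so a gap between core and diamond is partly built in. Core medians rise from 1861 to 7721 bp over the control, shRNA5 and shRNA7 lists, while the diamonds stay near 2000 bp, and in the doxycycline arm the core medians lie well above the diamonds.

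Upon shRNA5, 3866 of 4079 core peaks were longer than in the control, with a median ratio of 1.66 (95% interval over peaks 1.63 to 1.71). At a fold of at least 1.5, 58.1% of the core was called longer, against 61.7% of all control peaks touched by an shRNA5 peak. The ratio of tags per kb was 1.38 (1.37 to 1.39), and 30.6% of the core passed the same fold, against 30.3%. Upon shRNA7, 4026 core peaks were longer, with a median ratio of 2.96 (2.84 to 3.10), and 79.1% passed the fold, against 80.8% of all control peaks touched by an shRNA7 peak. For tags per kb the shRNA7 ratio was 1.66 (1.64 to 1.67), and 67.1% passed, against 67.0%. The background holds the core itself, so these pairs of shares could differ little. Among the control peaks outside the core that were touched, 809 of 1072 were longer past the fold upon shRNA5 (75.5%, median ratio 2.46, 2.33 to 2.59) and 549 of 593 upon shRNA7 (92.6%, median 4.76, 4.39 to 5.23), against the 58.1% and 79.1% of the core. These shares were added after the values had been seen. Gene-body peaks had median shRNA7 length ratios of 4.87 in the core and 4.74 outside it, with overlapping intervals, and promoter-proximal peaks 2.30 and 3.91. The density ratios outside the core were 1.36 and 1.65 for shRNA5 and shRNA7. Both hairpins were read against the same control library, and their values are set side by side without a further comparison.

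With doxycycline, 2472 core peaks were shorter and 1604 longer than without it, with a median length ratio of 0.931 (0.920 to 0.940). In the core 17.9% of peaks were shorter past the fold and 11.3% longer, against 13.3% and 28.5% of the no-doxycycline peaks touched by a doxycycline peak. The measures are unlike, since the core ratio sums the peaks of both lists at a control peak. The background ratio, for length and density alike, divides by a single no-doxycycline peak, so these shares are not directly comparable. The ratio of tags per kb was 1.18 (1.17 to 1.19). Past the fold 15.7% of the core was denser and 1.30% less dense, against 33.1% and 0.782% in the background, which holds many short peaks of few tags. The median density of all peaks was itself 1.46 times as high in the doxycycline list. When each value was divided by the median of its list, the core ratio turned to 0.810, below 1, whereas the hairpin ratios became 1.44 and 1.74. The direction of the doxycycline change in density thus depended on the scale.

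**Figure D4:**
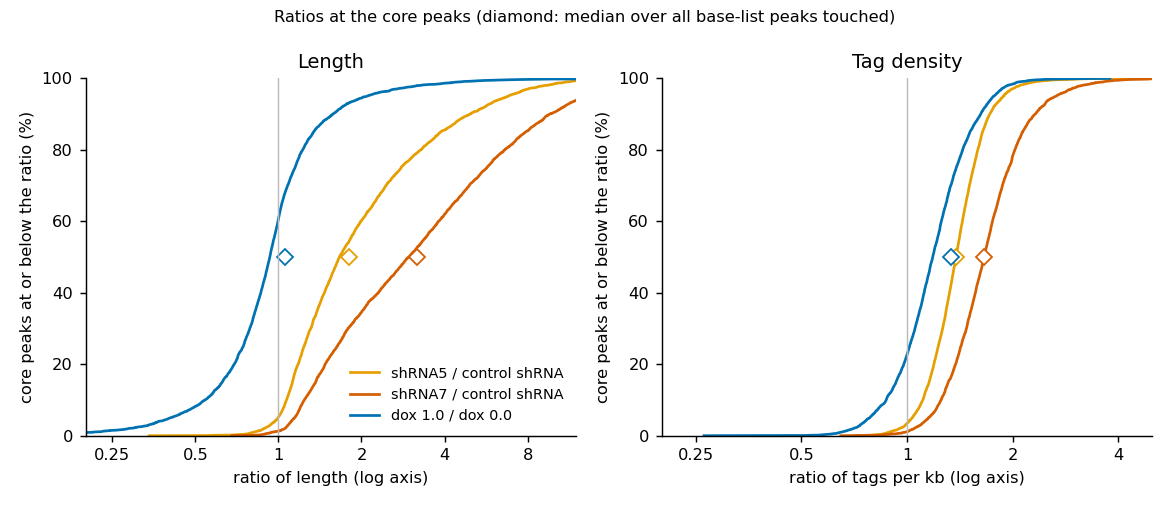
Cumulative share of the 4079 core peaks (%, vertical axis) by ratio of length (left) and of tags per kb (right), on log axes, for shRNA5 and shRNA7 over the control shRNA and for doxycycline over none. Diamonds mark the median over all peaks of the base list that were touched. The doxycycline diamonds divide by single no-doxycycline peaks, whereas the curves sum the peaks of both lists. The shRNA7 curves lie furthest right, with medians of 2.96 and 1.66, and the doxycycline length curve crosses 50% just below 1.

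Several core peaks often lay under 1 broad peak. In the shRNA7 list 1269 core peaks shared a peak with another core peak, against 900 for shRNA5, 545 without doxycycline and 503 with it. The widest sharing was an shRNA7 peak of 48603 bp with 4945 tags on chromosome X, at UBA1, CDK16 and USP11, which spanned 9 core peaks. An shRNA5 peak of 22569 bp with 1780 tags spanned 6 core peaks at MSH6 and FBXO11. Without doxycycline an 18647 bp peak at PABPC4 spanned 7. The reverse held in the doxycycline arm, where 28.1% of core peaks without the drug and 24.6% with it were covered by 2 or more peaks, against 2.23% upon shRNA5 and 0.735% upon shRNA7. With the 2784 core peaks that shared no peak, the length ratio was 1.46 for shRNA5 and 2.07 for shRNA7.

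The lengthening was larger over gene bodies than at promoters. Gene-body core peaks had a median of 2322 bp in the control list, 7648 bp upon shRNA5 and 13820 bp upon shRNA7, with length ratios of 2.70 (2.57 to 2.81) and 4.87 (4.61 to 5.29). Promoter-proximal core peaks had medians of 1689, 2809 and 5022 bp, with intervals of 1.48 to 1.53 and 2.19 to 2.41 for the ratios. The intervals of the 2 positions did not overlap, although they cover the spread over peaks only and take the peaks as independent. A hairpin peak shared by several core peaks was counted at each of them, at times at both positions. The split by position was not repeated without shared peaks. With doxycycline the length ratio was 0.959 over gene bodies (0.930 to 1.00) and 0.929 at promoters (0.918 to 0.938). The ratio of tags per kb was 1.37 over gene bodies and 1.12 at promoters in that arm, from 27.4 to 37.9 and from 52.6 to 58.3 tags per kb in the medians. For shRNA5 and shRNA7 this ratio was also higher over gene bodies, 1.46 and 1.83, than at promoters, 1.34 and 1.58.

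At the 2131 core peaks that touched start sites of 1 coding gene, the reach of the peaks could be read along the gene. In the control list the median reach was 777 bp upstream and 793 bp downstream of the TSS. It was 1031 and 1492 bp upon shRNA5, and 1285 and 2334 bp upon shRNA7. The reach was therefore about even on both sides in the control and longer into the gene with either hairpin. Against the control, the downstream edge lay a median of 508 bp further upon shRNA5 (454 to 574) and 1271 bp further upon shRNA7 (1159 to 1490), and the upstream edge lay further out in 1827 and 1971 of the 2131 peaks. Without doxycycline the reach was 695 bp upstream and 856 bp downstream, and with it 643 and 768 bp. Doxycycline thus went with edges nearer the TSS on both sides, by medians of 62 bp upstream and 58 bp downstream, and the downstream edge was nearer in 1248 of 2131 peaks.

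The median summit lay near the start site in every list, for peaks that were chosen for lying at a start site. Its median position was 18 bp downstream of the TSS in the control list, 16 bp upon shRNA5, 23 bp upon shRNA7 and 24 bp in both doxycycline lists. The summit lay within 500 bp of the TSS in 87.4% of these peaks in the control list. This share was lower with the hairpins, 82.4% upon shRNA5 and 80.6% upon shRNA7, and was 87.0% without and 86.3% with doxycycline. The annotated end of the gene was reached at 128 of the 2131 core peaks in the control list, 6.01% (5.07 to 7.10). It was reached at 266 upon shRNA5, 12.5%, and at 443 upon shRNA7, 20.8% (19.1 to 22.6). These are counts of core peaks, so a gene with several of them counts more than once. The shares were 8.63% without and 7.88% with doxycycline. Among the 1581 core peaks at genes of at least 10 kb, the end was reached at 8 in the control and at 27 and 82 with shRNA5 and shRNA7. In the doxycycline arm it was reached at 14 and 17, at 0.0 and 1.0 ng/ml.

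**Figure D5:**
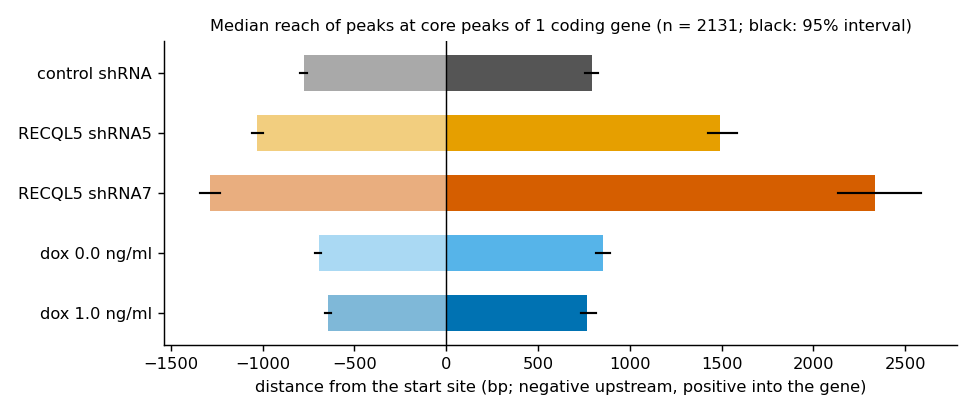
Median reach (bp, horizontal axis) of the peaks of each list upstream (pale, negative) and downstream (full colour, positive) of the TSS, at the 2131 core peaks of 1 coding gene. Black lines give the 95% interval over peaks. The downstream reach is 793 bp in the control list and 2334 bp upon shRNA7, and shrinks from 856 to 768 bp with doxycycline.

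At several highly occupied genes the peaks of all lists were of similar length, and the hairpin lists differed in density. HNRNPU, which encodes a scaffold protein of nuclear RNA, had a peak of 33181 bp with 3396 tags in the control list. The peaks there were 33815 bp with 5451 tags upon shRNA5 and 34077 bp with 8848 tags upon shRNA7, a length ratio of 1.03 and a density ratio of 2.54 for shRNA7. Without and with doxycycline they summed to 30688 and 31646 bp with 2083 and 2666 tags. HSP90AB1, a cytosolic chaperone gene, likewise had lengths of 12208, 12612 and 12982 bp in the 3 hairpin-arm lists at 121, 171 and 209 tags per kb. ACTB, beta-actin, had 10835, 11663 and 12066 bp at 121, 174 and 258 tags per kb, and 12812 bp with 1299 tags and 10076 bp with 909 tags at 0.0 and 1.0 ng/ml doxycycline. At all 3 genes the hairpin peaks were longer than the control by less than 1.2-fold, and denser with shRNA7 than with shRNA5.

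The ribosomal protein gene RPS19 showed the same order, with 116 tags per kb for the control, 179 and 240 for the hairpins, and 114 and 137 for the doxycycline lists. RPS4X held 141, 167, 245, 119 and 142 tags per kb. Over the 89 core peaks of ribosomal protein genes the median length ratio was 1.48 for shRNA5, 2.12 for shRNA7 and 0.958 for doxycycline. The medians of the whole core were 1.66, 2.96 and 0.931. Of the 89 peaks, 87, 89 and 30 were longer, against 94.8%, 98.7% and 39.3% of the whole core. EEF1A1, the factor that delivers transfer RNA to the ribosome, had 164, 218, 244, 129 and 133 tags per kb. SRSF3, a splicing factor, had 122, 157, 222, 86.2 and 97.9 tags per kb, and NCL, nucleolin, 97.1, 111, 150, 70.5 and 94.6. In these 5 genes the density within the hairpin arm was highest upon shRNA7. The doxycycline value was above the value without the drug, by as little as 1.03-fold at EEF1A1.

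Among immediate early genes, EGR1 differed little in density between the hairpin-arm lists. Its peak held 2763 tags over 10813 bp in the control list, 2480 over 10094 bp upon shRNA5 and 3405 over 12374 bp upon shRNA7, a density ratio of 0.962 and 1.08. Without and with doxycycline it held 1431 and 1361 tags over 9904 and 7893 bp. JUN, a partner of FOS in the AP-1 factor, held 93.8 tags per kb in the control list, 164 and 264 upon shRNA5 and shRNA7, and was 116 and 107 without and with doxycycline. The 17 core peaks of the immediate early list had a median shRNA7 length ratio of 4.46, against 2.96 in the whole core, and 13 passed the fold of 1.5, a share near the 80.8% of the background.

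At other genes the control peak was short and the shRNA7 peak broad. YWHAZ, a 14-3-3 adaptor protein, had a peak of 2862 bp with 142 tags in the control list, 6901 bp with 491 tags upon shRNA5 and 33796 bp with 2914 tags upon shRNA7, and 6574 and 5450 bp without and with doxycycline. UQCRFS1, an iron-sulphur subunit of the respiratory chain, had 2924, 3265 and 15462 bp in the hairpin arm and 2487 and 2546 bp in the doxycycline arm. HEXIM1, an inhibitor of the elongation kinase P-TEFb, had 6503, 8517 and 27861 bp, and 6495 and 5614 bp. SUPT5H, a subunit of the pausing and elongation factor DSIF, had 6641, 9787 and 17337 bp, and 6500 and 6562 bp. KRT8, a keratin of simple epithelia, had 1967, 3000 and 11559 bp, and 2236 and 2468 bp. In each of them the shRNA7 peak was the longest of the hairpin arm and the doxycycline pair differed by less than 1.5-fold.

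The histone promoter shared by H1-4 and H2BC5 was 4140 bp in the control list, 6149 bp upon shRNA5 and 22399 bp upon shRNA7, at 179, 182 and 149 tags per kb. Over the 31 core peaks of replication-dependent histone genes the median length ratio was 1.15 for shRNA5 and 3.69 for shRNA7, and 27 passed the fold upon shRNA7, against 80.8% in the background. Histone genes lie side by side in clusters, so a broad peak can span several of them. POLR2A, which encodes the RNAPII subunit that the antibody binds, had 4945, 12235 and 12603 bp in the hairpin arm, and 11723 bp without and 5138 bp with doxycycline, a doxycycline length ratio of 0.438 and a density ratio of 1.91. HSPA8, a heat shock protein of unstressed cells, had 11155 bp without and 5091 bp with doxycycline, and MCM5, a subunit of the replicative helicase, 1682 and 4166 bp, in the opposite direction.

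RECQL5 itself had no control peak and so no core peak. A peak at its TSS was found upon shRNA7, and 3 each without and with doxycycline, where tags of the plasmid and of the gene cannot be told apart. Peaks give no measure of RECQL5 RNA, so they do not check the knockdown. Of the 6 genes whose elongation the study followed singly, ITPR1, a calcium channel of the endoplasmic reticulum, had a core peak, with 1203, 2163 and 2024 bp in the hairpin arm and 1600 and 928 bp without and with doxycycline. IFT80 had a TSS peak in every list but shRNA7, KIFAP3, CTNNBL1 and OPA1 had none in the control list, and EFNA2 had none. BLM and RECQL, sister helicases of RECQL5, and TOP1 had core peaks. At BLM the lengths were 2286, 3627 and 3815 bp in the hairpin arm and 1363 and 2304 bp in the doxycycline arm.

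The extremes of the ratios were mostly small control peaks that lay beneath a much larger peak of another list. The 3 highest shRNA7 length ratios were 36.1 at RBM14-RBM4, 35.2 at MAP3K12 and 35.2 at ZBTB17, all gene-body peaks of 1104 to 1329 bp in the control list. At MAP3K12 the doxycycline ratio was also the highest, 25.9, from 1464 bp and 36 tags without the drug to 37919 bp and 3528 tags with it. The next were 16.3 at PLPPR3 and 13.98 at CCDC28B. The lowest doxycycline length ratios were 0.0722 at ZNF34, 0.0907 at SRRT and 0.0967 at KLC1. At SRRT the peaks were 10826 bp at 0.0 and 982 bp at 1.0 ng/ml. The lowest shRNA7 length ratios were 0.677 at AHI1, 0.678 at ZNF426 and 0.732 at a non-coding locus, so that no core peak shrank past the fold upon shRNA7.

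The 2 highest shRNA7 density ratios, 9.75 and 8.86, belonged to small control peaks of 63 and 125 tags in the histone gene cluster of chromosome 1, both beneath the same shRNA7 peak of 31331 bp with 10540 tags. The upstream one of the pair, at chr1:149806967-149810259, held 1068 tags without and 88 tags with doxycycline, the lowest doxycycline density ratio of the core at 0.264. JMJD6, a nuclear hydroxylase gene, came next upon shRNA7 at 5.57, from 63 to 3532 tags. The lowest shRNA7 density ratios were 0.647 in CTC1, 0.696 at RNU5A-1 and 0.701 at RPL41.

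Few core peaks lay away from genes. Of 4079, 106 touched no annotated gene and 20 lay over 5 kb from any. The one with most control tags, chr17:41392568-41394383, held 599 tags over 1816 bp, and 971, 1215, 524 and 414 tags in the shRNA5, shRNA7, no-doxycycline and doxycycline lists. Its density was 330 tags per kb in the control list. The next, chr20:47718976-47724725, lay 5151 bp from STAU1 and was 5750 bp long with 310 tags in the control list and 27847 bp with 2476 tags upon shRNA7. The last, chr2:121831926-121833523, held 271, 498, 762, 398 and 306 tags in the 5 lists.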

How the data were processed

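RNAPII ChIP-seq libraries of 9 samples (5 RNAPII, 4 IgG) were grouped by their labels, 1 library per group. Per the labels and the study's methods, 36 bp reads were processed with CASAVA 1.8 and aligned with Bowtie 0.12.7 to hg19 (GRCh37), reads in blacklisted regions were removed, and peaks were called by the authors with MACS 1.4.2 on each library against IgG. The deposited lists give for each peak its position, length and summit, and its tags, a raw read count of the authors. The deposited significance score is a multiple of −log10 of the peak's p-value. Fold enrichment was deposited as a ratio of tags to those anticipated locally, and the FDR was deposited in percent. Library totals are not used here. The methods state that compared libraries had similar numbers of reads, with a higher range for the hairpin arm than for the doxycycline arm. The lists of the hairpin arm are shorter than the peak numbers given in the methods, for a reason not given in the sources used here, so the core is that of the deposited lists.

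No peak ended beyond a GRCh37 chromosome. Overlaps (at least 1 bp), summed lengths, summed tags over summed length and ratios were computed in Python 3.11 with pandas, and pysam read the sequence. GENCODE release 44 lifted to GRCh37 gave genes and start sites (window 500 bp). A ratio was called at 1.5-fold, and the background was all peaks of the base list touched by the other list. Named genes were RECQL5 and 6 genes followed by the study, the 2 genes of each list with most control tags, the 5 densest core peaks, the 3 highest and 3 lowest ratios of length and tags per kb for shRNA7 and doxycycline, and the 3 largest peaks over 5 kb from a gene. They are given where they add to the text. Other names (the MCM, snRNA and shared-peak examples among them) were chosen after the values were seen. The members and gene lists were chosen with earlier results of these data known. Intervals are at 95%, by Wilson's method for shares and from ordered values for medians, and reflect counting error or spread over peaks only, and peaks are not replicates. No test between conditions was possible with 1 library per group. The overlap code was tested on simulated peaks.

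Alternatives were stricter peaks (a score from 100, an FDR up to 5%, or an enrichment from 10), merging of peaks under 1 kb apart, 50% reciprocal overlap, summits within 500 bp, lists of equal size, chromosomes 1 to 22 and X, a single overlapping peak, scaling to the list median and other start site definitions. Exclusion of shared peaks and of snRNA loci was added after seeing the data.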

Additional observations from a re-analysis of the deposited data

How the results depend on the processing

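The number of core peaks was 4079 and depended on the overlap rule. It was 1662 at a score of at least 100, 2556 at a fold enrichment of at least 10, 1141 with 50% reciprocal overlap, 2249 with summits within 500 bp and 1674 with lists of the size of the control list. In the same order the promoter-proximal share was 69.1%, 77.2%, 84.8%, 87.8% and 75.3%. It was 71.2% with merged peaks, 67.6% with a 1 kb window and 79.2% with the start sites of all transcripts.

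The hairpin ratios stayed above 1 under all alternatives run. For shRNA5 length the ratio was 1.60 at the higher fold enrichment, 1.77 merged, 1.23 reciprocal, 1.42 by summits and 1.46 without core peaks that shared a peak. For shRNA7 length it was 2.63, 3.56, 1.38, 1.98 and 2.07, and 2.78 with lists of equal size. The reciprocal rule keeps only peaks of similar length, so in both arms its length ratios are held near 1 by the rule itself. For tags per kb the merged, summit, equal-size, list-median and unshared values were 1.33, 1.33, 1.41, 1.44 and 1.35 for shRNA5, and 1.55, 1.54, 1.69, 1.74 and 1.57 for shRNA7.

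The doxycycline length ratio was 0.941 at the higher score, 0.912 at the higher fold enrichment, 0.904 merged, 0.944 reciprocal, 0.9496 with equal sizes and 0.940 with a single overlapping peak. Its ratio of tags per kb was 1.16 at the higher score and 1.16 at the higher fold enrichment, 1.204 merged, 1.11 reciprocal, 1.11 by summits, 1.12 with equal sizes and 1.15 unshared. It turned below 1, to 0.810, only after division by the list medians, as that division itself brings about. The exclusion of shared peaks and of snRNA loci was chosen after seeing the data. No paired analysis was possible because the labels give 1 library a group and no value came from a test, and no replicate could be left out. Library totals were not at hand, so tags could not be scaled to depth.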
